A study of Homo sapiens with 6 samples.

Results

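The transcripts of 10 enzymes that handle cyanide and sulfide were followed in HepG2 cells given glycine. The genes were taken by symbol from the 57500 genes counted in each library: the sulfurtransferases TST, MPST and TSTD1, the sulfide-producing enzymes CBS and CTH, the mitochondrial oxidation enzymes SQOR, ETHE1 and SUOX, and the cysteine-degrading enzymes CDO1 and CSAD. HepG2 is an established human hepatocarcinoma line, here with the label WT. A total of 6 libraries were compared, 3 from cells treated with vehicle and 3 from cells treated with 10 mM glycine, all for 24 h. The replicates were biological, which by the definition in the methods of the study means that they came from separate days of experiment. The medium of both groups itself contained glycine. The results come from 1 cell line and describe RNA only. The comparison addresses whether transcripts of the cyanide and sulfide enzymes change when cells receive glycine, which the study treats as a source of cyanide.

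Rhodanese, the product of TST, moves a sulfur atom from thiosulfate onto cyanide and so yields the far less toxic thiocyanate. Its supply of sulfur is tied to sulfide metabolism. Hydrogen sulfide arises from cysteine and homocysteine through CBS and CTH, and from mercaptopyruvate through MPST. In mitochondria SQOR oxidizes sulfide to a persulfide, ETHE1 oxidizes the persulfide to sulfite, and SUOX turns sulfite into sulfate, while rhodanese can join persulfide and sulfite into thiosulfate. CDO1 and CSAD draw cysteine away from this route towards taurine. The liver is a main site of these reactions, and cyanide and sulfide share a toxic target, cytochrome c oxidase.

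Of these 10 genes, 9 were expressed enough to be tested. SQOR rose by 47% with glycine and TST fell by 20.4%, and the other 7 tested genes were not called. A gene was called when its edgeR quasi-likelihood test gave a Benjamini-Hochberg adjusted p under 0.05 over all 15492 tested genes. Glycine changed 13.3% of the tested genes by this rule, with 6.71% higher and 6.54% lower, against 2 of these 9 (22.2%). The median log2 change of the 9 genes was -0.05 and that of all tested genes 0. The groups did not overlap in CPM for 5 of the 9, against 4896 of all 15492 tested genes (31.6%). With so few members, neither share can be set apart from its background.

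TST and MPST lie side by side on chromosome 22 on opposite strands, so that their first parts run across each other over 549 bases (GRCh38, TST from 37010859 to 37020183 on the minus strand, MPST from 37019635 to 37029822 on the plus strand). Only 6 exonic bases are shared. The coding sequences are related, with 615 of 874 aligned bases identical, or 70.4%. The stretches around the codon of the cysteine that carries the transferred sulfur are shown because both enzymes work through this residue. They read 5′ to 3′ from GENCODE transcripts, with the cysteine codon in capitals, and lie at chr22:37011147-37011209 for TST and chr22:37029332-37029394 for MPST.
TST: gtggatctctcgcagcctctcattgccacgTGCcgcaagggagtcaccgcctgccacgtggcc
MPST: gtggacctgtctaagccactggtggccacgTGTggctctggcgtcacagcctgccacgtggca
Despite this likeness, no stretch of 50 bases from a TST transcript occurred in a transcript of another gene. For MPST, 2.82% of such stretches did, none of them in TST.

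CBS and its copy are far closer. The GRCh38 assembly lists a near-identical second locus, CBSL, on the same chromosome 21. Whether it is a separate gene or a duplication within the assembly was not tested. The longest CBS coding sequence and its CBSL counterpart differed at 1 of 1653 bases, C699T, with positions counted from the first base of the CBS start codon. The stretch around that base, in capitals, lies at chr21:43065210-43065270 for CBS and chr21:6456888-6456948 for CBSL, both on the minus strand, and shows how little distinguishes the copies.
CBS: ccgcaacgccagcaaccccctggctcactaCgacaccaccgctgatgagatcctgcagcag
CBSL: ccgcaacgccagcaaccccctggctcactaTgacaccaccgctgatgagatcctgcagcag
Of all 50-base stretches in CBS transcripts, 54.5% also occurred in CBSL transcripts, and 91% of those of CBSL occurred in CBS. How reads matching both copies were counted is not given in the sources used here. The CBS counts below may therefore describe only the parts of the gene that are its own.

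SQOR, which had the largest change of the 9 tested genes, is shown with the window around its RefSeq start site, from 250 bases before to 50 after it (chr15:45634779-45635078, GRCh38.p14, plus strand). The gene as counted begins earlier, at 45631148, so this window lies inside it. GGGCGG, the core of the motif of SP1-type factors, was found at 4 places counting both strands, none overlapping another, and is in capitals.
SQOR: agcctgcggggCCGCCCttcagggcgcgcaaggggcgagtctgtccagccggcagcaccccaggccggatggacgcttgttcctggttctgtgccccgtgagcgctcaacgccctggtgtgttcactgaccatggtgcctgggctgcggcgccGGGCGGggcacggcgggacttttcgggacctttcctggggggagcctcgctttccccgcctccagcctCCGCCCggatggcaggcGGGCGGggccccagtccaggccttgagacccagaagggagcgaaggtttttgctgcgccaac
GGGCGG occurred at least once in 45% of 35116 windows of the same length and at 2 or more places in 26.7%. The ETHE1 window and a CBS window also held 4 matches, and neither gene was called. CCAAT (the CCAAT box), TGACNNNGC (the core of the antioxidant response element) and TTGCATCA (an element of the amino acid response), searched on both strands, did not occur in the SQOR window and were found in 34.6%, 13.3% and 0.866% of all windows. A window was at hand for 8 of the 10 genes, and TST and MPST had none.

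The libraries held between 31795489 and 58815986 counts, and glycine replicate 2 was the deepest. Depending on the library, 1 count equalled 0.017 to 0.0315 CPM, the unit of counts scaled to library size that is used below. Together the 8 hepatocyte markers (ALB, APOA1, APOB, TTR, AFP, SERPINA1, FGB and TF) took 29082 to 33125 CPM in vehicle libraries and 24935 to 28667 CPM in glycine libraries, and 2 of them, APOA1 and TTR, were called lower. The 6 markers of other cell types (PTPRC, CD68, PECAM1, LUM, COL1A1 and KRT5) summed to 7.74 to 8.12 CPM with vehicle and 9.88 to 10.9 CPM with glycine. KRT5 had no count in 5 of 6 libraries and PTPRC at most 3, while COL1A1 and CD68 were called higher and PECAM1 was not called. CD68 shares 85.8% of its exon length with other genes, and how reads there were counted is not given in the sources used here. In bulk RNA, fewer cells of a type and less RNA per cell cannot be told apart. The part of either marker group in the results below was not tested.

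**Figure D1:**
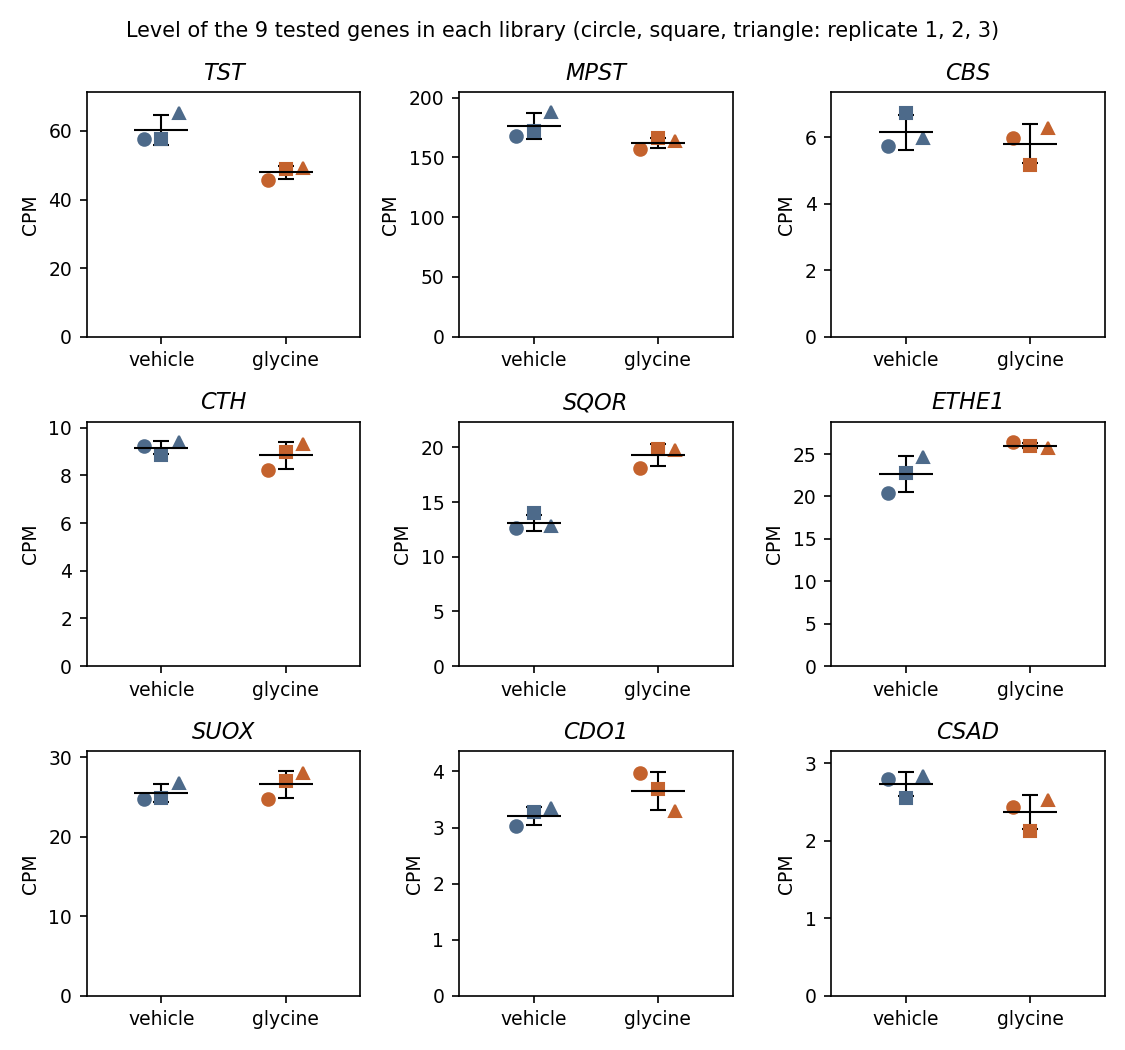
Level of each of the 9 tested genes in CPM (vertical axes from 0) in the 3 vehicle (blue) and 3 glycine (orange) libraries, with bars for the mean ± SD. TST is lower and SQOR higher in all glycine libraries, and the groups of CBS, CTH, SUOX and CDO1 overlap.

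TST stood at 57.7, 57.7 and 65.1 CPM in the vehicle libraries and at 45.7, 48.8 and 49.1 CPM in the glycine libraries. The groups did not overlap, and vehicle replicate 3 was the highest library. The mean fell from 60.2 ± 4.32 to 47.9 ± 1.89 CPM (SD, n = 3), or by a log2 change of -0.33 ± 0.0697 (s.e.) and a fold of 0.796 (95% interval 0.717 to 0.883). Its edgeR adjusted p was 0.00758, and it ranked 774 among the 15492 tested genes. The call held under all 15 alternatives, with log2 changes from -0.37 to -0.268.

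MPST, the sister sulfurtransferase that takes sulfur from mercaptopyruvate, was read at 168, 172 and 188 CPM with vehicle and at 157, 166 and 164 CPM with glycine. All glycine values lay below all vehicle values, as they did, in one direction or the other, for 31.6% of tested genes. The log2 change was -0.11 ± 0.0646 (s.e.), with an interval of -0.25 to 0.02 and an edgeR adjusted p of 0.28. The measured fall of TST lies outside this interval, but the intervals of the sister genes overlap, and an uncalled gene is not shown to be unchanged.

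The ratio of the sister genes does not depend on how libraries are scaled. Per kilobase of exon, TST stood at 1.20, 1.17 and 1.21 times MPST in the vehicle libraries and at 1.01, 1.03 and 1.05 times in the glycine libraries. The mean went from 1.19 ± 0.0182 to 1.03 ± 0.0164 (SD, n = 3), with no overlap. The size of this ratio depends on the exon lengths used, 1937 bases for TST and 6760 for MPST. In CPM, MPST (mean 176 with vehicle) stood above TST (60.2). The relative change of the ratio between the groups does not depend on these lengths. An exact permutation test (two-sided) gave p = 0.1, the smallest that 3 libraries against 3 allow, and the adjusted value over 4 ratios was also 0.1. These ratios were chosen with the changes of the genes known.

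TSTD1 (chromosome 1, 161037631 to 161038990), a short protein built of a single rhodanese domain, was nearly absent. It had 0, 1 and 2 counts with vehicle and 1, 2 and 1 with glycine, or 7 counts in all. No library exceeded 0.0556 CPM. The counting floor of 3 counts lay between 0.051 and 0.0944 CPM, so a difference in TSTD1 was not detectable at this depth.

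SQOR, the mitochondrial quinone reductase that takes the first step in sulfide oxidation, stood at 12.6, 14 and 12.8 CPM with vehicle and at 18.1, 19.9 and 19.8 CPM with glycine. The lowest glycine library lay well above the highest vehicle library. The mean with vehicle was 13.1 ± 0.753 CPM, and glycine brought it to 19.3 ± 1.02 CPM (SD, n = 3). This is a log2 change of 0.56 ± 0.08 (s.e.) and a fold of 1.47 (95% interval 1.3 to 1.66, edgeR adjusted p = 0.000517). It ranked 279 among the tested genes, and its call held under all 15 alternatives with log2 changes from 0.517 to 0.605. SQOR (chromosome 15, 45631148 to 45691294) shares 28.5% of its exon length with another gene on the same strand, ENSG00000260170. That gene had 1 count over all 6 libraries, and how reads in the shared part were counted is not given in the sources used here.

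ETHE1 (chromosome 19, 43506719 to 43527244), the persulfide dioxygenase that acts after SQOR, was at 20.4, 22.8 and 24.6 CPM with vehicle and at 26.4, 25.9 and 25.7 CPM with glycine. The groups did not overlap, but the vehicle libraries were spread far more widely than the glycine libraries. The log2 change of 0.20 ± 0.0781 (s.e., interval 0.03 to 0.37) had an edgeR p of 0.0216 before adjustment and 0.109 after it. Without vehicle replicate 3 the adjusted p was 0.0437 and the log2 change 0.27. Without vehicle replicate 1 they were 0.386 and 0.12. ZNF575, on the opposite strand, covers 14.8% of the exon length of ETHE1 and had 21 to 54 counts a library.

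SUOX (chromosome 12, 55997180 to 56006641), the molybdenum enzyme that ends the route at sulfate, stood at 24.7, 24.9 and 26.8 CPM with vehicle and 24.7, 27 and 28 CPM with glycine. The groups overlapped, and the log2 change was 0.06 ± 0.0735 (s.e., interval -0.10 to 0.22, edgeR adjusted p = 0.646). SQOR stood at 0.827, 0.91 and 0.772 times SUOX per kilobase with vehicle and at 1.19, 1.19 and 1.15 times with glycine (exact permutation test, two-sided, p = 0.1, again the smallest possible). SQOR over TST stood at 0.137 ± 0.0146 with vehicle and 0.252 ± 0.00374 with glycine, and SQOR over ETHE1 at 0.304 ± 0.0293 and 0.385 ± 0.025 (SD, n = 3). Since SQOR was the gene called higher and TST the gene called lower, these ratios restate those calls within each library and add no independent evidence.

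**Figure D2:**
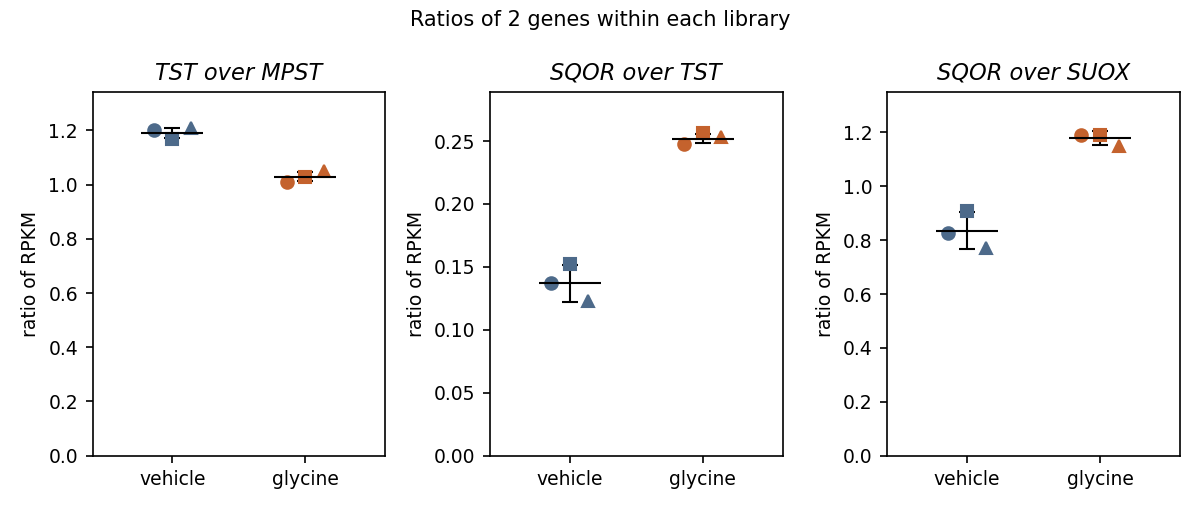
Ratio of the CPM per kilobase of exon (RPKM) of 2 genes within each library (vertical axes from 0, vehicle blue, glycine orange, bars for mean ± SD of 3 libraries). TST over MPST is 1.17 to 1.21 with vehicle and 1.01 to 1.05 with glycine, and both SQOR ratios are higher in every glycine library. The size of each ratio depends on the exon lengths used.

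CBS (chromosome 21, 43053191 to 43076943), cystathionine β-synthase, which condenses homocysteine with serine or cysteine, was counted 201, 235 and 215 times with vehicle and 191, 302 and 265 times with glycine. In CPM the values were 5.74, 6.74 and 5.98 against 5.98, 5.16 and 6.28, which overlap. The log2 change was -0.09 ± 0.115 (s.e., interval -0.34 to 0.16, edgeR adjusted p = 0.664). CBSL had 14 counts in all and was too low to test. Adding its counts to those of CBS changed no call, but they are few beside the 1409 counts of CBS. Reads matching both copies may be in neither count, so this sum cannot show their effect.

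CTH (chromosome 1, 70411218 to 70439851), cystathionine γ-lyase, which releases cysteine from cystathionine, stood at 9.22, 8.86 and 9.4 CPM with vehicle and at 8.21, 8.99 and 9.33 CPM with glycine. These values overlap. The log2 change of -0.05 ± 0.0902 (s.e., interval -0.24 to 0.15) had an edgeR adjusted p of 0.785.

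CDO1 (chromosome 5, 115804733 to 115816954), the dioxygenase that commits cysteine to cysteine sulfinate, stood at 3.03, 3.27 and 3.34 CPM with vehicle and at 3.98, 3.69 and 3.29 CPM with glycine. Glycine replicate 3 fell among the vehicle libraries. The log2 change was 0.18 ± 0.129 (s.e., interval -0.10 to 0.46, edgeR adjusted p = 0.402). CDO1 was counted 106 to 216 times a library.

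CSAD (chromosome 12, 53157663 to 53180909), which decarboxylates cysteine sulfinate on the way to taurine, stood at 2.8, 2.55 and 2.84 CPM with vehicle and at 2.44, 2.12 and 2.53 CPM with glycine. The highest glycine and the lowest vehicle library nearly met. The log2 change was -0.22 ± 0.143 (s.e., interval -0.52 to 0.09, edgeR adjusted p = 0.365), and a fold as low as 0.696 lay within the interval. CSAD had 78 to 124 counts a library and the widest interval of the 9 genes, followed by CDO1. Part of its exon length (6.61%) lies in genes on the opposite strand, among them ZNF740, which was itself called lower (log2 change -0.28, edgeR adjusted p = 0.0188), and the part of those reads in the CSAD counts was not tested.

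**Figure D3:**
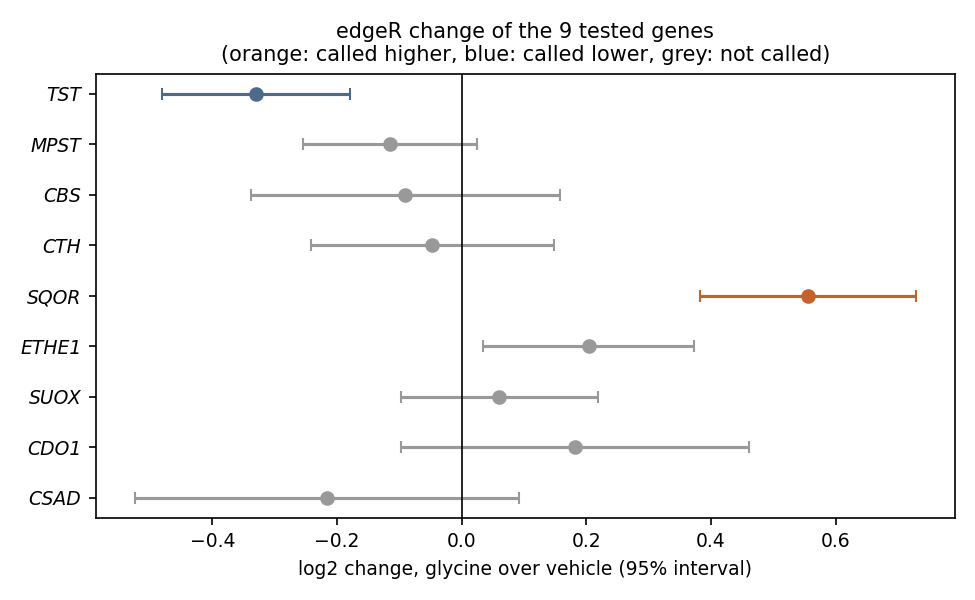
Log2 change (glycine over vehicle, horizontal axis) of the 9 tested genes from edgeR with 95% intervals. The intervals of TST (-0.48 to -0.18), SQOR (0.38 to 0.73) and ETHE1 (0.03 to 0.37) leave out 0, and TST and SQOR are called after adjustment over all genes.

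Levels per length were compared as RPKM, which is CPM per kilobase of exon. With vehicle the order was TST (31.1 ± 2.23 RPKM), MPST (26 ± 1.6), ETHE1 (14.1 ± 1.33), SUOX (5.09 ± 0.228), SQOR (4.25 ± 0.244), CTH (3.79 ± 0.115), CDO1 (1.47 ± 0.0749), CBS (0.907 ± 0.0768), CSAD (0.622 ± 0.0353) and TSTD1 (0.0232 ± 0.023; SD, n = 3 for each). None of the neighbours in this order overlapped between their vehicle libraries, the closest being SQOR at 4.09 to 4.53 RPKM and CTH at 3.67 to 3.89 RPKM. TST lay above 89.8% of tested genes by this measure and CSAD above 20.9%. With glycine, TST (23.6 to 25.3 RPKM) and MPST (23.3 to 24.6 RPKM) overlapped, and SQOR (5.85 to 6.44 RPKM) stood above SUOX (4.92 to 5.59 RPKM), in the reverse of their vehicle order. These levels use the whole exon length of each gene, which for MPST (6760 bases) is far longer than its coding sequence of 891 bases. In CPM, MPST (mean 176 with vehicle) stood above TST (60.2), so the order of TST and MPST depends on the length used. The level of CBS may be understated for the reason given above.

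Summed per length, the sulfurtransferases stood at 54.6, 55.2 and 61.5 RPKM with vehicle and 46.9, 49.8 and 49.6 RPKM with glycine. SQOR, ETHE1 and SUOX together went the other way, from 21.7, 23.7 and 24.8 RPKM to 27.2, 28 and 28 RPKM. Neither pair of groups overlapped. These sums hold the called genes TST and SQOR and so partly restate those calls. Uncalled genes add to them, as mean ETHE1 went from 14.1 to 16.2 RPKM and mean MPST from 26 to 24 RPKM. CBS with CTH stood at 4.66 to 4.78 RPKM with vehicle and 4.28 to 4.79 RPKM with glycine, and CDO1 with CSAD at 2.02 to 2.17 and 2.08 to 2.37 RPKM, so those sums overlapped. The 9 tested genes together took 87.3 ± 5.32 RPKM with vehicle and 83.2 ± 2.14 RPKM with glycine (SD, n = 3), and these sums carry no test.

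**Figure D4:**
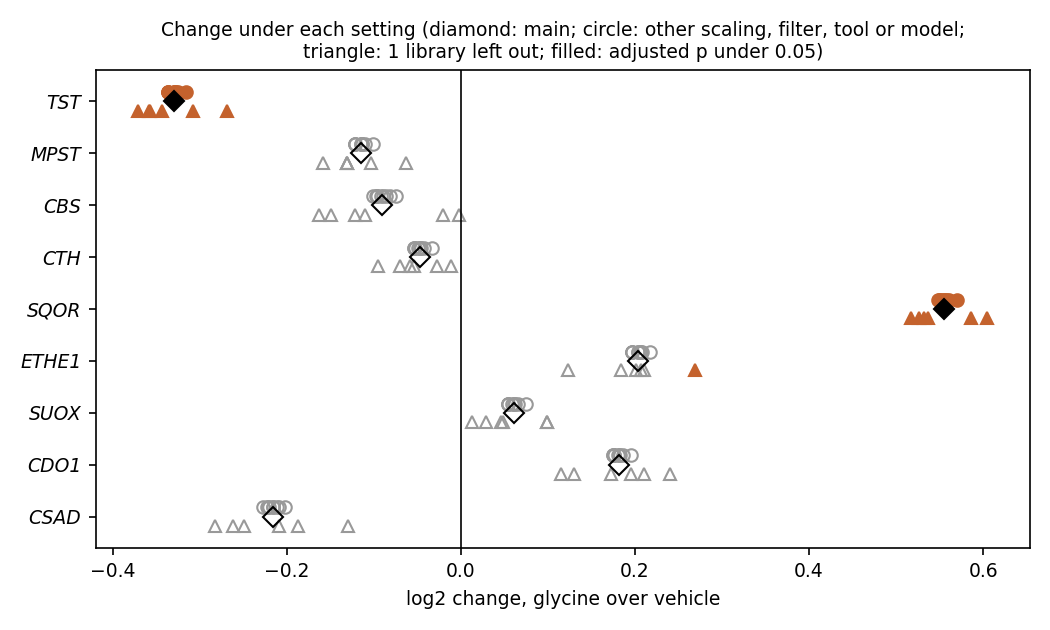
Log2 change (glycine over vehicle, horizontal axis) of each tested gene in the main fit (diamond), under 9 other scalings, filters, tools or models (circles) and with each of the 6 libraries left out (triangles), filled where the adjusted p was under 0.05. TST and SQOR are filled throughout, and ETHE1 is filled only without vehicle replicate 3.

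Of 9110 other genes averaging 10 CPM or more, those whose log2 CPM followed SQOR most closely over the 6 libraries were XRCC3 (Pearson r = 0.9997, log2 change 0.23) and PXN (0.9988, log2 change 0.28). For TST they were PPP1R16A (0.9967, log2 change -0.41) and SECTM1 (0.9945, log2 change -0.75). These are the best matches out of all 9110 genes over only 6 libraries that share the treatment, and are given as a description.

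Around the 10 enzymes, 59 further genes of sulfur and cobalamin metabolism were listed by role, of which 54 were tested. Of these, 5 were called higher and 7 lower, or 22.2%, against 13.3% of all tested genes. The median log2 change was -0.02. The groups did not overlap for 24 of the 54, against 4896 of all 15492 tested genes (31.6%). The lists were chosen with earlier results of these data known. Both shares are therefore a description, and their distance from the background was not tested.

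In the methionine cycle, which feeds homocysteine to CBS, 1 of 10 genes was called higher and 2 lower. AHCY, the hydrolase that releases homocysteine, rose from 574 ± 51.6 to 712 ± 32.5 CPM (SD, n = 3, log2 change 0.31, edgeR adjusted p = 0.0197). AHCYL1, an AHCY-like protein, fell from 143 ± 6.56 to 115 ± 0.624 CPM (log2 change -0.32, edgeR adjusted p = 0.00391). BHMT, which returns homocysteine to methionine with betaine, fell from 5.47 ± 0.14 to 3.98 ± 0.709 CPM (log2 change -0.45, edgeR adjusted p = 0.0427). AHCY lost its call in 4 and BHMT in 5 of the 6 fits that left out a library.

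None of the 6 tested genes of cystine and cysteine entry was called by edgeR, by DESeq2 or by limma with voom, and 0 had an unadjusted edgeR p under 0.05. SLC1A4, a neutral amino acid carrier, had the smallest p among them and averaged 234 ± 31.2 CPM in vehicle and 207 ± 8.33 CPM in glycine libraries (edgeR adjusted p = 0.201).

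Of 14 tested genes for persulfides and sulfur transfer, 1 was called higher and 1 lower. TMT1A, also named METTL7A, a methyltransferase of thiols, was read at 118, 108 and 114 CPM with vehicle and at 73.3, 72.5 and 76.1 CPM with glycine, far apart. Its log2 change was -0.62 ± 0.0618 (s.e., edgeR adjusted p = 2.48e-05), larger in size than that of SQOR. KYAT1, which can turn cysteine into mercaptopyruvate, the substrate of MPST, rose from 3.64 ± 0.256 to 5.25 ± 0.46 CPM (log2 change 0.53, edgeR adjusted p = 0.0106), and this call was lost without glycine replicate 3 (0.0573).

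SUOX needs a molybdenum cofactor, and none of the 3 genes listed for its synthesis was called by edgeR, with 1 at an unadjusted p under 0.05. GPHN, which inserts the metal, averaged 30.1 ± 1.26 CPM in vehicle and 34.3 ± 1.27 CPM in glycine libraries (edgeR adjusted p = 0.081).

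Of the 6 genes listed around the transport and activation of sulfate, the end product of SUOX, 2 were called lower and 0 higher. PAPSS1, which makes the activated sulfate donor, stood at 126, 136 and 133 CPM with vehicle and at 95.3, 94.3 and 98.3 CPM with glycine. Its log2 change was -0.46 ± 0.0601 (s.e., edgeR adjusted p = 0.000247). SLC26A1, a sulfate exchanger, fell from 66 ± 5.54 to 53.7 ± 2.06 CPM (log2 change -0.30, edgeR adjusted p = 0.0154) and lost its call in 3 of the 6 fits that left out a library.

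Of 6 tested genes around cysteine sulfinate and taurine, 1 was called higher and 1 lower. SLC6A6, the taurine transporter, fell from 54.5 ± 5.76 to 39 ± 3.32 CPM (log2 change -0.48, edgeR adjusted p = 0.00251). GOT1, an aspartate aminotransferase that also accepts cysteine sulfinate, rose from 114 ± 2.9 to 136 ± 4.6 CPM (log2 change 0.26, edgeR adjusted p = 0.0126), and lost its call without vehicle replicate 1 or glycine replicate 3.

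Cobalamin binds cyanide, and MMACHC removes it from cyanocobalamin inside cells. MMACHC stood at 18, 18.4 and 19.6 CPM with vehicle and at 25.6, 24.5 and 22.7 CPM with glycine, with no overlap. It rose by 0.38 ± 0.0752 on the log2 scale (s.e., edgeR adjusted p = 0.00541), and the call held under all 15 alternatives. Part of the MMACHC exon length (7.67%) lies in CCDC163 and PRDX1, and the part of their reads in the MMACHC counts was not tested. LMBRD1, which takes part in the release of cobalamin from lysosomes, fell from 26.4 ± 1.32 to 20.5 ± 0.839 CPM (log2 change -0.36, edgeR adjusted p = 0.00534), also under all 15. TCN2, the plasma carrier of cobalamin, rose from 0.85 ± 0.0656 to 1.37 ± 0.201 CPM (log2 change 0.69, edgeR adjusted p = 0.0383), and this call was lost whichever library was left out. Of the 9 tested genes of this list, 2 were called higher and 1 lower.

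**Figure D5:**
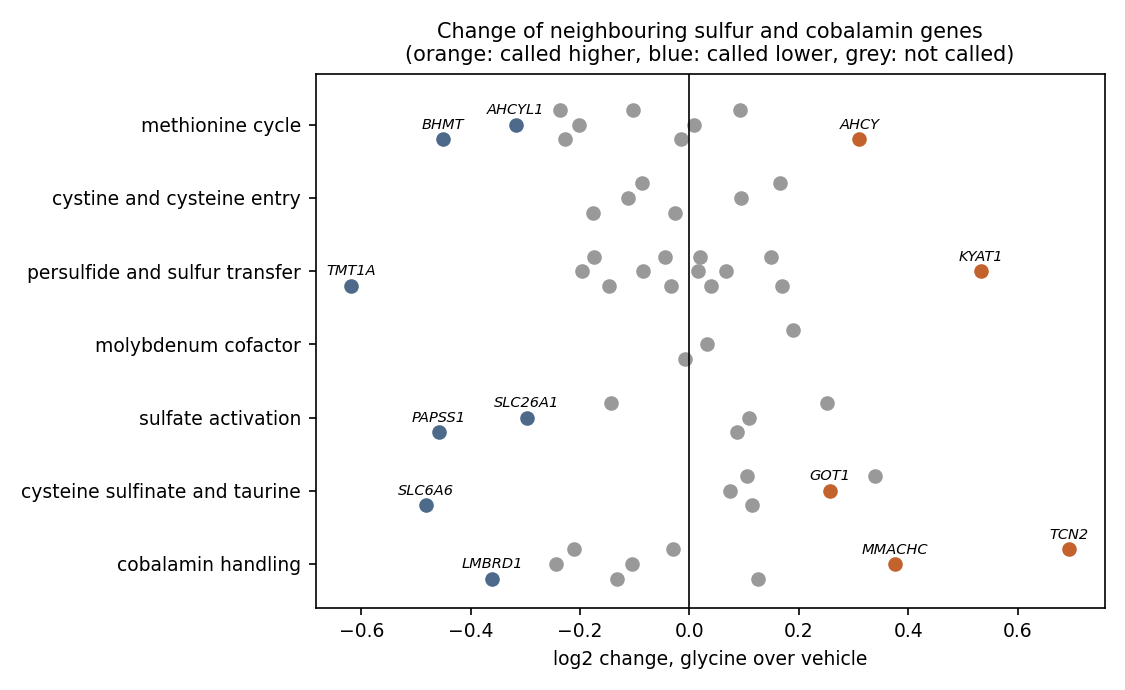
Log2 change (glycine over vehicle, horizontal axis) of the 54 tested neighbouring genes, 1 row of points per list, with called genes named. Both directions occur, with 5 genes called higher (orange) and 7 lower (blue), and TMT1A lies farthest to the left at -0.62.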

How the data were processed

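HepG2 RNA was sequenced in 6 libraries, 3 per group. The authors deposited raw counts per gene, not normalized, with 1 table per library. The submitters' processing notes name Trimmomatic 0.36, STAR 2.5.2b, featureCounts of Subread 1.5.2 and GRCh38. The strand setting, the treatment of reads matching several places and the annotation release are not given in the sources used here. Other called neighbouring genes also share exon length with other genes, among them SLC26A1 (12.4%), TCN2 (7.88%) and BHMT (6.79%). The effect on their counts was not tested. Of 57500 genes, 54784 had the same span in GENCODE release 29.

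Counts were tested in edgeR 4.0.16 (R 4.3.3, quasi-likelihood F-test, two-sided) after the default expression filter (minimum count 10, minimum total 15) and scaling by the trimmed mean of M values, with group as the only term. Standard errors were the log2 change divided by the square root of F. CPM used scaled library sizes, and RPKM divided CPM by the exon length in the tables. The values of 1 and 3 counts used unscaled totals and cover counting error only. The 15 alternatives were DESeq2 size factors, upper-quartile and total count scaling, no filter, a mean of at least 1 CPM, limma 3.58.1 (voom), DESeq2 1.42.0 (Wald), replicate number as a block, CBS and CBSL summed, and each library left out in turn, all on the whole table. Summing CBS and CBSL bears on CBS only, and it left TST and SQOR at their main values. The scripts were tested on simulated data. Replicates of a group differed beyond sampling noise (chi-square per degree of freedom from 7.61 to 29.6).

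The genes named were the 10 enzymes, CBSL, up to 3 called genes per neighbouring list by smallest p (otherwise the smallest p), and the 2 genes most like each of the 2 members with the smallest p. Members and lists were chosen with earlier results of these data known.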

Additional observations from a re-analysis of the deposited data

How the results depend on the processing

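SQOR was called higher and TST lower under all 15 alternatives, and 6 other members were called under none. ETHE1 was called in 1, without vehicle replicate 3. Leaving out 1 library at a time gave 1 to 2 members called higher and 1 lower, 2 to 4 neighbouring genes higher and 5 to 7 lower, and 587 to 926 of all genes higher and 655 to 1010 lower, with fewer samples. The count of all genes called higher moved by over 1.5 times without vehicle replicate 1 (590) or glycine replicate 1 (594), 2 (617) or 3 (587), and that of genes called lower without glycine replicate 2 (655). Neighbouring genes called higher were 2 without vehicle replicate 1 or glycine replicate 3, and 3 without vehicle replicate 3 or glycine replicate 1 or 2. Other scalings, filters and tools kept every count within 1.5 times. Total count scaling put 55.9% of called genes higher, against 50.7%.

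Pairing by replicate number was not seen, since deviations of same-numbered libraries correlated at -0.058, -0.027 and -0.003. Positive correlations occurred only between unlike numbers. Vehicle replicate 1 reached 0.214 against glycine replicate 3. For vehicle replicate 2 the highest value was found with glycine replicate 1 (0.214), and for vehicle replicate 3 with glycine replicate 2 (0.18). Pairing in this other order was not tested, and a block on replicate number cannot show it. A fit with replicate number as block called 866 genes higher and 918 lower, with 1 member higher and 1 lower, and 4 neighbouring genes higher and 7 lower. TCN2 (adjusted p = 0.0547) lost its call under the block and with the DESeq2 Wald test (0.1). TSTD1 and CBSL had too few counts to be tested, and CBS, CDO1 and CSAD had low counts and wide intervals. For CBS and CBSL, reads matching both copies may be missing from the counts, and this was not tested.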
